A study of Acanthocheilonema viteae with 2 samples.

Results

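The miRNAs let-7, miR-84 and lin-4 belong to the heterochronic pathway, which sets the timing of larval development in nematodes. They were examined in RNA released by adult Acanthocheilonema viteae, a filarial worm that lives in rodents. Of 384 rows in the deposited table, 86 carry a nematode species code. Those with let-7, lin-4, miR-48, miR-84, miR-237 or miR-241 in the name numbered 3: asu-let-7-5p, asu-miR-84-5p and asu-lin-4-5p_1ss19TC, all named after Ascaris suum. The names miR-48, miR-237 and miR-241 had 0 nematode-named rows, so these miRNAs are not analysed here.

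The 2 groups are secretions of adult females and secretions of adult males, with 1 small RNA library each; the labels give no treatment, strain or genotype, and the stage of the male sample, misspelled there, was read as adult. The sexes were held apart in RPMI-1640 with penicillin, streptomycin and L-glutamine for up to 3 weeks at 1 to 2 worms per ml, and RNA was taken from the washed pellet of the filtered medium after spinning at 100000 x g. The sources used here do not give the number of worms behind each library, so more worms and more release per worm cannot be told apart. Because each sex has 1 library, the spread between replicates is unknown and no test was made. All intervals are 95% and cover only the error of counting, with reads treated as independent. No molecular identifiers are named for these reads, which cannot be taken as independent molecules, so the intervals may be too narrow.

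In C. elegans, lin-4 lowers lin-14 and lin-28 and so lets larvae leave their early programme. Later, let-7 lowers lin-41 at the change from larva to adult, and miR-84, a relative of let-7 with the same seed, acts at earlier larval changes together with its sisters. Mammals have several let-7 genes and the lin-4 relative miR-125, which are abundant in differentiated tissues.

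The sequences show which of the 3 worm miRNAs could be mistaken for a mammalian one, and are given as deposited (T for U), 5′ to 3′, with the seed (nucleotides 2 to 8) in capitals.
asu-let-7-5p: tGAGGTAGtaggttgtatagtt
asu-miR-84-5p: tGAGGTAGtttataaagctgcga
asu-lin-4-5p_1ss19TC: tCCCTGAGacctctgctgcga

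The let-7 and miR-84 sequences, of 22 and 23 nt, shared their seed and their first 9 nucleotides, and then diverged, with an edit distance of 10. The lin-4 sequence, of 21 nt, had another seed and lay 15 edits from let-7 and 12 from miR-84. It was the richest in G and C, at 61.9% against 36.4% in let-7 and 39.1% in miR-84. Although their seeds differ, miR-84 and lin-4 ended in the same 7 letters, gctgcga, and no other of the 384 rows ended so, since 2 rows did in all. In lin-4 this end includes the base that its name marks as changed, T19C, counted from 1 at the 5′ end with the base of the named miRNA first. The deposited base matched the second letter of such a suffix in 51 of 55 rows that carry one. Each of the 3 sequences stood on 1 row, and none held parts of a read.

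Among these rows, only let-7 had a mammalian form that could not be told from it. None of the 3 sequences was equal to, or contained in, any of the 9 mammal-named let-7 rows or the 5 mammal-named miR-125 rows (no row was named miR-98). The row ocu-let-7a-5p_R+1_1ss9TG, however, returned exactly the asu-let-7-5p sequence once the extra 3′ base and the substitution in its name were undone. Unmodified mammalian let-7a reads would therefore be counted under asu-let-7-5p, and the origin of that row is uncertain. Its nearest mammal-named row, cfa-let-7f, differed by 1 edit. By contrast, miR-84 was 8 edits or more from every mammal-named row, and lin-4 was 5 edits or more away. The nearest to lin-4 was ocu-miR-125b-5p, which shared its first 11 nucleotides. No other nematode-named row and no predicted candidate carried the lin-4 seed, and let-7 and miR-84 were the only such rows with the let-7 seed. Within 3 edits of let-7 lay 4 other rows, all mammal-named, and within 3 edits of miR-84 or of lin-4 lay none.

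The libraries differed in size and makeup, which bears on every share below. Summed over all rows, there were 292740 reads from females and 74881.3 from males. Mammal-named rows took 6.71% of female and 51.4% of male reads, and nematode-named rows plus predicted candidates, here called worm reads, took 93.3% and 48.6%. In reads, the worm rows held 273106 in female and 36371 in male secretions, a ratio of 7.51. Shares are therefore given of all reads and of worm reads.

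The most abundant of the 3 in both libraries was lin-4. It had 4466 reads in female and 1773 in male secretions. That was 1.53% of all female reads (1.48 to 1.57) and 2.37% of all male reads (2.26 to 2.48), the higher share being male. Among worm reads lin-4 took 1.64% of the female (1.59 to 1.68) and 4.87% of the male library (4.66 to 5.10). The female-to-male ratio of shares was 0.644 (0.610 to 0.681) over all reads, and 0.335 (0.317 to 0.355) when only worm reads are counted. On these scales lin-4 was 1.55-fold and 2.98-fold higher in male secretions. Its ratio was above 1 on the authors' normalized values, which keep the difference in total reads, and with the TMM and median-of-ratios scalings described at the end. Among the 86 nematode-named rows it ranked 11 in female and 6 in male secretions. In the female library lin-4 stood between bma-miR-36a_R+1_1ss20TC, with 4534 reads, and bma-miR-5866, with 4158. The share of bma-miR-36a_R+1_1ss20TC overlapped that of lin-4 in its interval, and that of bma-miR-5866 did not. In the male library those neighbours had 404 and 318 reads, far fewer than lin-4. There it stood between asu-miR-81a, with 1887 reads, whose interval overlapped, and bma-miR-71_R+4, with 1281, whose interval did not.

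For let-7 the reads were nearly equal in number despite the difference in library size. The row asu-let-7-5p had 1304 reads in female and 1185 in male secretions. These were 0.445% of all female reads (0.422 to 0.470) and 1.58% of all male reads (1.49 to 1.67). Among worm reads the shares were 0.477% (0.452 to 0.504) in female and 3.26% (3.08 to 3.45) in male secretions. The ratio was 0.281 (0.260 to 0.305) over all reads, and 0.147 (0.135 to 0.159) when only worm reads are counted, which is 3.55-fold and 6.82-fold higher in male secretions. On those other scalings the let-7 ratio was also above 1. Among nematode-named rows let-7 ranked 25 in female and 9 in male secretions. In the male library its neighbours were bma-miR-2c_R+1_1ss1CT, with 1252 reads, and bma-miR-100b_R+1, with 1183, and both overlapped let-7 in their intervals. Yet bma-miR-100b_R+1 had 10611 reads in female secretions, against the 1304 of let-7. In the female library let-7 lay between bma-miR-92_R+2, with 1379 reads, and asu-miR-993-3p, with 1235, and the intervals of both overlapped its own. The mammal-named share moves with this result, and its part in the let-7 result was not tested.

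The let-7 relative miR-84 was rare. It had 10 reads in female and 12 in male secretions, 0.00342% (0.00164 to 0.00628) and 0.0160% (0.00828 to 0.0280) of all reads. Its ratio was 0.213 (0.0825 to 0.538) over all reads, and 0.111 (0.0430 to 0.280) when only worm reads are counted. The male share was thus the higher one on both scales, though with TMM or median-of-ratios scaling neither side was fixed, and over all reads the interval reached past the 2-fold mark of 0.5, and the size of the difference is poorly fixed at this depth. Among nematode-named rows miR-84 ranked 70 in female and 51 in male secretions.

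**Figure D1:**
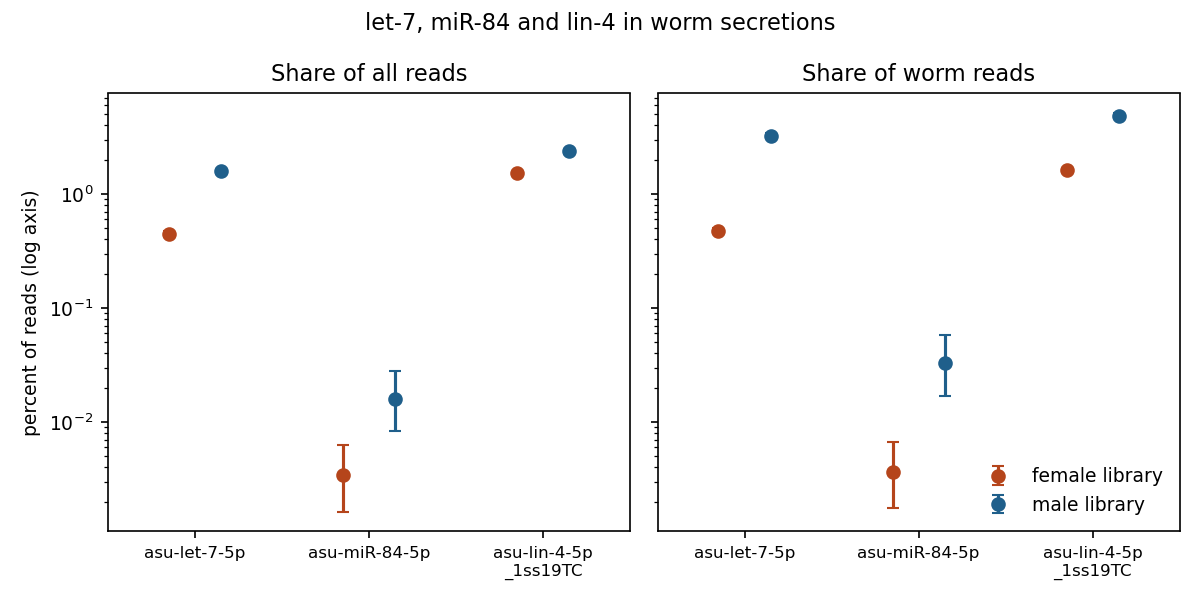
Share of each miRNA in the female (left point) and male (right point) library, as percent of all reads and of worm reads on a log axis; bars are exact 95% binomial intervals from counts, with 1 library per sex. The male point is the higher one in all 6 pairs, a direction that other scalings turn for let-7 and lin-4 and leave unfixed for miR-84, and miR-84 lies far below let-7 and lin-4, between 0.00342% and 0.0330%.

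Together the 3 miRNAs made up 2.12% of worm reads in female and 8.17% in male secretions. All 3 passed the minimum of 10 reads in at least 1 library. Over all reads, let-7 and miR-84 were at least 2-fold higher in male secretions, which holds for 18.8% of the 112 worm rows above that minimum, and lin-4 was not. The miR-84 call rests on 10 female and 12 male reads. Its interval reached past the 2-fold mark, so its call and its rank below are poorly fixed. Over worm reads all 3 were at least 2-fold higher in male secretions, against 33.9% of the same rows. On these 2 scales none was at least 2-fold higher in female secretions, against 35.7% of worm rows over all reads and 8.04% over worm reads. These calls turn with the scaling. On the authors' normalized values and with TMM or median-of-ratios scaling, the lin-4 ratio was above 2, at 3.01, 3.48 and 4.29. None of the 3 was 2-fold higher in the male there. On those scalings 96, 99 and 101 worm rows were at least 2-fold higher in female secretions, against 40 over all reads, so the turn is not particular to lin-4. Of the rows read in both libraries, 171 were mammal-named, with a median ratio of 0.114 over all reads, and 86 were worm rows. Counted from the most male-sided of the 112 rows, miR-84 ranked 8, let-7 ranked 11 and lin-4 ranked 26. The median worm row read in both libraries had a ratio of 1.16 over all reads (86 rows). Below that median, let-7 lay 4.13 times, miR-84 5.46 times and lin-4 1.80 times lower, a distance that no scaling of the libraries changes.

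**Figure D2:**
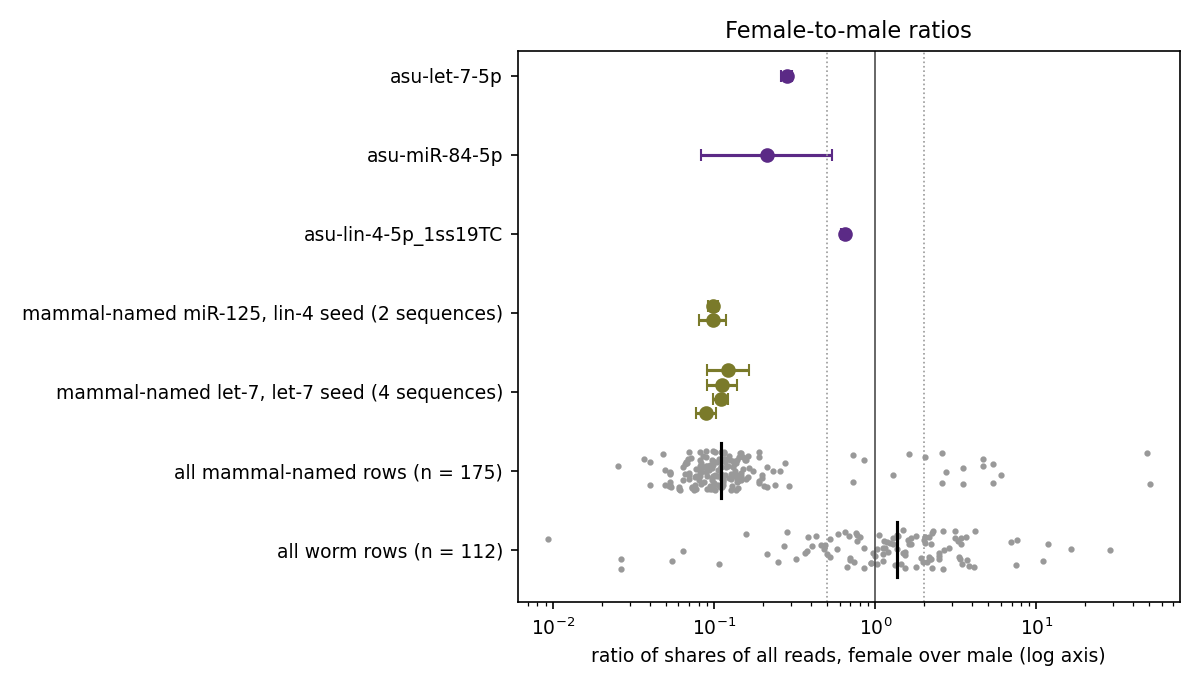
Female-to-male ratio of shares of all reads on a log axis for let-7, miR-84 and lin-4, for mammal-named sequences with the same seeds read in both libraries, and for every worm and mammal-named row with at least 10 reads in 1 library; bars are exact 95% intervals from counts, black lines are medians with rows at 0 set to 3 reads, and dotted lines mark 2-fold. The 3 worm miRNAs lie at 0.213 to 0.644, between the worm median of 1.37 and the mammal-named median of 0.111.

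Read against each other within a library, the 3 nematode-named rows gave comparisons that do not depend on how the libraries are scaled. There were 0.292 let-7 reads for each lin-4 read in female secretions (0.274 to 0.311) and 0.668 in male secretions (0.620 to 0.720). The female-to-male ratio of these was 0.437 (0.396 to 0.481), so the asu-let-7-5p row was 2.29 times higher relative to lin-4 in male secretions. That row would also count unmodified mammalian let-7a reads, and their part in this difference was not tested. For miR-84 against lin-4 the ratio of ratios was 0.331 (0.128 to 0.837), in the same direction. For let-7 against miR-84 there were 130.4 let-7 reads per miR-84 read in female and 98.8 in male secretions. Their ratio of ratios, 1.32 (0.521 to 3.43), had an interval that includes 1, so a difference between these seed relatives was not detectable at this depth.

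The mammal-named relatives were set beside them, and their reads were not used as a test of origin. The 6 mammal-named rows with the let-7 seed (5 sequences) summed to 953 female and 2358 male reads, 9.67-fold higher in male secretions over all reads (8.97 to 10.4). The 4 with the lin-4 seed, all named miR-125, summed to 1267 and 3282 reads, 10.1-fold higher in male secretions (9.49 to 10.8). All 10 of these rows were at least 2-fold higher in male secretions, as were 89.7% of the 175 mammal-named rows with 10 reads or more. The most abundant sequences were those of ocu-miR-125b-5p and sha-miR-125a, with 1113 female and 2881 male reads, of cfa-let-7f, with 494 and 1148, and of ggo-let-7i_R+1 and ocu-let-7i-5p, with 262 and 753. Their female-to-male ratios were close, at 0.0988, 0.110 and 0.0890. The variant ocu-let-7a-5p_R+1_1ss9TG had 0 female and 21 male reads, and the limit set here for a count of 0, which is 3 reads, equals 0.00102% of the female library. Rows with another seed, named let-7 (3 rows) or miR-125 (1 row), held 14 and 5 reads in female and 42 and 6 in male secretions.

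The mammal-named let-7 and miR-125 rows stood in proportions that did not differ detectably between the libraries. The proportion of asu-let-7-5p to lin-4 did differ, but the origin of the asu-let-7-5p row is uncertain. There were 0.752 mammal-named let-7 reads per miR-125 read in female secretions (0.691 to 0.819) and 0.718 in male secretions (0.681 to 0.758), a ratio of ratios of 1.05 (0.947 to 1.16). Against the mammal-named let-7 rows, asu-let-7-5p had 1.37 reads per read in female secretions (1.26 to 1.49) and 0.503 in male secretions (0.468 to 0.539). The ratio of ratios was 2.72 (2.44 to 3.04), so asu-let-7-5p was less male-sided than the mammal-named let-7 rows. Against cfa-let-7f alone, 1 edit away, it was 2.56 (2.24 to 2.92). For lin-4 against the mammal-named miR-125 rows there were 3.52 reads per read in female secretions (3.31 to 3.75) and 0.540 in male secretions (0.510 to 0.573). That ratio of ratios was 6.52 (5.99 to 7.11), so lin-4 departed further from its mammal-named relatives than let-7 did. Worm rows and mammal-named rows differ widely in general. Among rows read in both libraries the median female-to-male ratio was 1.16 for worm rows and 0.114 for mammal-named rows. Origin was not tested by these ratios. For miR-84 against the mammal-named let-7 rows the ratio of ratios was 2.06 (0.795 to 5.23), with an interval that includes 1.

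Grouped by seed, the nematode-named rows took most of the family reads in female secretions and a minority in the male. For the let-7 seed this is a split by name only, since the origin of the asu-let-7-5p row is uncertain. Of all reads with the let-7 seed, asu-let-7-5p held 57.5% in female secretions (55.5 to 59.6) and 33.3% in male secretions (31.8 to 34.9). miR-84 held 0.441% and 0.338%. Of all reads with the lin-4 seed, asu-lin-4-5p_1ss19TC held 77.9% in female secretions (76.8 to 79.0) and 35.1% in male secretions (33.8 to 36.4). With both kinds of name together, rows with the let-7 seed took 0.774% of the reads from females and 4.75% of those from males, and rows with the lin-4 seed 1.96% and 6.75%.

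**Figure D3:**
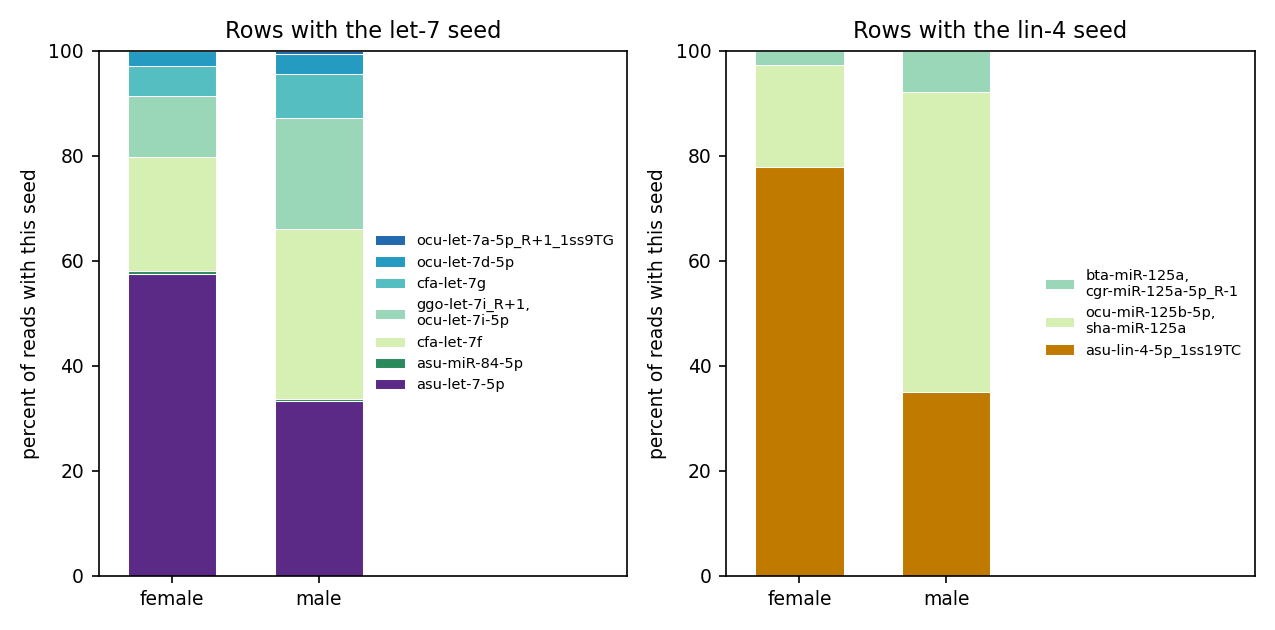
Makeup of the reads that carry the let-7 seed (left) and the lin-4 seed (right) in the female and male libraries, as percent of the reads with that seed; each colour is 1 sequence with the names it carries in the table, worm-named sequences at the bottom. The worm-named part of the lin-4 seed was 77.9% in female and 35.1% in male secretions, and that of the let-7 seed 58.0% and 33.7%.

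Rows with a female-to-male ratio like that of each miRNA were sought among the nematode-named rows with at least 100 reads in all, by the difference of log2 ratios over the 2 libraries. Nearest to let-7 were bma-miR-250_R-1_1ss20CT at a ratio of 0.273 (685 female and 642 male reads), asu-miR-133-3p_R-1 at 0.250 (84 and 86 reads) and bma-miR-5364 at 0.374 (840 and 574 reads). The first 2 of these, with let-7 itself, were also the nearest to miR-84. Nearest to lin-4 were bma-miR-1175 at 0.665 (478 and 184 reads), bma-miR-5361 at 0.691 (343 and 127 reads) and bma-miR-87b_R+1 at 0.697 (256 and 94 reads). The likeness rests on 1 ratio each, and many rows can share one.

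In a list of other miRNAs tied to developmental timing or to let-7, the 5 nematode-named rows had higher female-to-male ratios than let-7, miR-84 and lin-4. Of these 5 rows, 4 were of the miR-100 family, and the list was chosen with earlier results of these data known. The list held miR-92 and its C. elegans relative miR-235, known from larval quiescence, and the miR-100 family, whose genes neighbour let-7 in many animals. The list also named miR-48, miR-237, miR-241 and miR-793 to miR-795, which had 0 nematode-named rows. Of its 5 nematode-named rows, 4 were at least 2-fold higher in female secretions over all reads and 0 in the male, against 35.7% and 18.8% of the 112 worm rows. Their median log2 ratio was 1.41, against 0.45 over the 112 worm rows. Over worm reads none of the 5 passed 2-fold in either direction, against 8.04% and 33.9% of worm rows. On the authors' normalized values, which keep the difference in total reads, the 5 ratios were 9.27 to 15.2. bma-miR-92_R+2 had 1379 female and 133 male reads and a ratio of 2.65 over all reads (2.22 to 3.19) and 1.38 over worm reads (1.16 to 1.66). The 4 miR-100 rows had ratios of 1.99 to 3.25 over all reads and of 1.03 to 1.69 over worm reads, whereas those of let-7, miR-84 and lin-4 over worm reads were 0.335 or lower.

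The side on which let-7 and lin-4 fell depended on the scaling, and miR-84 had an interval that includes 1 on the scalings that turned them. On the authors' normalized values the female-to-male ratio was 1.31 for asu-let-7-5p (1425 and 1084), 0.995 for asu-miR-84-5p (10.9 and 11.0) and 3.01 for asu-lin-4-5p_1ss19TC (4881 and 1622). On that scale let-7 and lin-4 were thus above 1 and miR-84 about level. Those values are the raw reads times 1.09 in female and 0.915 in male secretions, so the 3.91-fold difference in total reads stays in them. A row with equal shares of both libraries would therefore lie above 1 there, and a ratio above 1 is not by itself a higher female share. With edgeR's TMM factors the ratios were 1.52 for let-7, 1.15 for miR-84 and 3.48 for lin-4, and with median-of-ratios scaling they were 1.88, 1.42 and 4.29. Both scalings were set over rows of both kinds. Of the rows read in both libraries, 171 were mammal-named and 86 were worm rows, with median ratios of 0.114 and 1.16 over all reads. A ratio above 1 on these scalings is therefore relative to a set of mostly mammal-named rows. A scaling multiplies all 3 ratios by 1 factor, so lin-4 had the highest ratio of the 3 on each scale used, and the order of let-7 and miR-84 was not fixed at this depth.

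**Figure D4:**
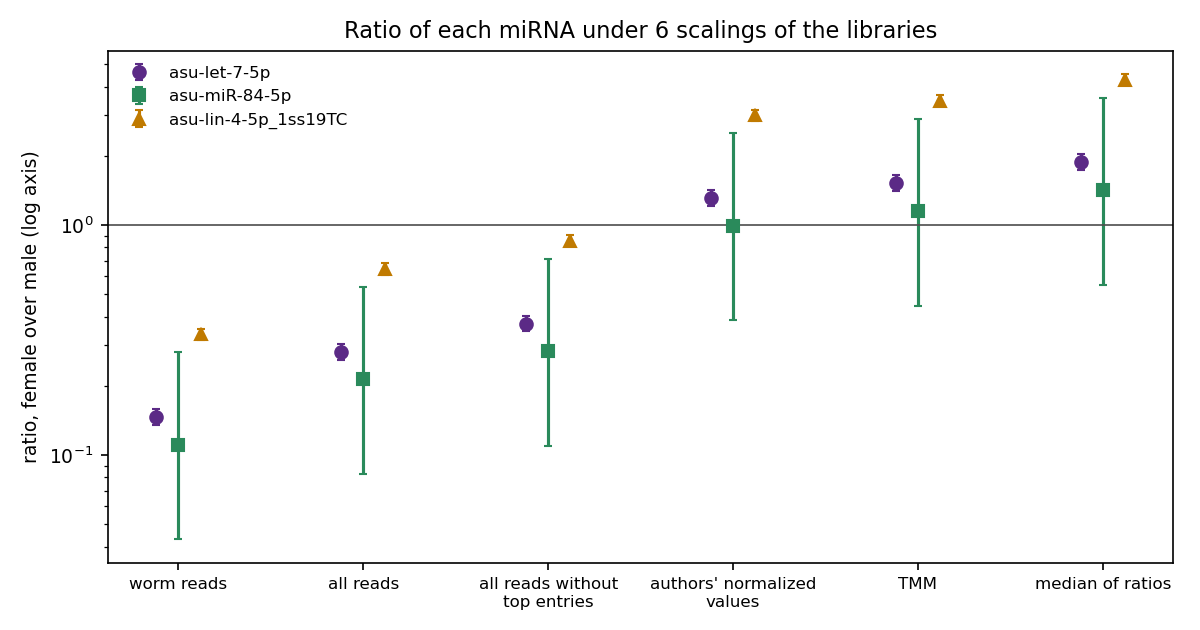
Female-to-male ratio of each of the 3 miRNAs on a log axis under 6 scalings of the libraries; points are ratios and bars exact 95% intervals from counts. All 3 lie below 1 over worm reads and over all reads, whereas let-7 reaches 1.31 and lin-4 3.01 on the authors' normalized values. Those values keep the difference in total reads between the libraries.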

How the data were processed

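Small RNA libraries of secretions from adult females and adult males (1 each) were made with Illumina TruSeq chemistry, per the labels' protocols; the sources used here do not give the aligner, database release or genome. The raw columns deposited by the authors hold estimated counts, since 126 of 384 rows have parts of a read. The normalized columns deposited by the authors, a signal, are the raw columns times 1.09 in female and 0.915 in male secretions. Columns of per-sample values left unused numbered 0. Rows were sorted by species code. Shares of all reads and of worm reads carry exact Clopper-Pearson intervals, ratios exact conditional ones, and ratios of ratios Fisher's conditional interval (scipy 1.17.1), at 95%, from counts rounded to whole numbers. A row at 0 was set to 3 reads. The size rule was 2-fold among rows with at least 10 reads in 1 library. It was tried on simulated counts with known totals and counting error alone. Apart from planted changes, the simulated libraries had the same makeup. That trial cannot show how the rule fares with a spread between libraries or a difference in makeup. TMM factors came from edgeR 4.0.16, over all 384 rows, mammal-named rows included. Named were the 3 miRNAs, rows sharing their seed, the 3 rows nearest in log2 ratio and the neighbours in rank. The miRNAs and lists were chosen with earlier results of these data known. Depth was 292740 female and 74881.3 male reads, so 3 reads are 0.00102% and 0.00401%.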

Additional observations from a re-analysis of the deposited data

How the results depend on the processing

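The scale decided the side of let-7 and lin-4, while the interval of miR-84 includes 1 on the first 3 scalings below. With median-of-ratios scaling, TMM scaling and the authors' normalized values, the ratio of asu-let-7-5p was 1.88, 1.52 and 1.31, that of asu-miR-84-5p 1.42, 1.15 and 0.995, that of asu-lin-4-5p_1ss19TC 4.29, 3.48 and 3.01, and that of let-7 plus miR-84 1.87, 1.52 and 1.31, where over all reads the last was 0.281. With totals that leave out the most abundant row of each library, let-7 had 0.373, lin-4 0.855 and the let-7 sum 0.373. Relative to the worm median, added after seeing the data, let-7 had 0.242 and lin-4 0.554. Without asu-let-7-5p the let-7 sum was miR-84 alone, at 0.213. Ratios over worm reads stayed within their intervals with nematode-named rows alone as the total. Rounding of reads, membership by seed and merging of identical sequences could not change the values of the 3 miRNAs, which hold whole reads, are the same rows by seed and stand on 1 row each. Of the 129 worm rows, 0 shared a sequence with a mammal-named row, so leaving such rows out changed nothing. That count does not settle the origin of asu-let-7-5p, since no mammal-named row holds unmodified let-7a.

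Counts of rows past 2-fold moved with the scale. With median-of-ratios scaling, TMM scaling and the authors' values, worm rows higher in female secretions numbered 101, 99 and 96 (40 over all reads) and those higher in the male 5, 5 and 6 (21 over all reads). Over all kinds of row these were 119, 117 and 114 female (53 over all reads) and 36, 64 and 87 male (178 over all reads). With at least 100 reads the counts were 24 female and 7 male for worm rows over all reads, 5 and 18 for worm rows over worm reads, and 28 and 65 for all rows. With intervals wholly beyond 2-fold they were 23 and 11 for worm rows over all reads, and 33 female for all rows. No paired analysis was possible because each sex has 1 library. For the same reason no library could be left out. With 10 and 12 reads, depth limits every statement on miR-84.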
